A study of Mus musculus with 16 samples.

Results

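The respiratory chain and ATP synthase genes are the mouse protein-coding genes whose symbols begin with Nduf, Uqcr, Cox4i, Cox5, Cox6, Cox7, Cox8 or Atp5, together with Sdha, Sdhb, Sdhc, Sdhd, Cyc1, Cycs and Cs. The rule found 99 genes among the 21887 protein-coding genes on chromosomes 1 to 19, X and Y of mouse build mm10. They comprise 41 complex I genes by symbol (Ndufa4 and Ndufa4l2, whose products are now placed with complex IV, are counted here), 8 complex I assembly factors, 4 genes of complex II, 9 of complex III, 18 of complex IV, 17 of ATP synthase, and the pair Cycs and Cs. Binding of the homeodomain transcription factors Meis1 and Hoxb13 at these genes was read from ChIP-seq, in which chromatin is pulled down with an antibody to a protein and the attached DNA is sequenced.

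Complexes I to IV of the inner mitochondrial membrane pass electrons from NADH and succinate to oxygen and pump protons, and ATP synthase uses the proton gradient to make ATP. Cytochrome c, encoded by Cycs, carries electrons from complex III to complex IV, and citrate synthase, encoded by Cs, opens the citric acid cycle that supplies the NADH. After birth the mouse heart turns from glycolysis to oxidative phosphorylation at about the time when its cardiomyocytes leave the cell cycle, and Meis1 and Hoxb13 are known as regulators of that exit.

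The tissue was the ventricles of mouse hearts at postnatal day 15. From postnatal day 7, mice received for 7 days either Paro/Neo, the aminoglycoside antibiotics paromomycin and neomycin at 150 mg/kg injected into the abdomen 2 times a day, or PBS vehicle (control). The series holds 16 samples, of which 8 are immunoprecipitated libraries with 1 peak list each and 8 are inputs, which are not analysed here. At issue is whether Paro/Neo altered which of these genes carry a call of either factor. Each antibody, one against Meis1/2 and one against Hoxb13, had 2 Paro/Neo and 2 control libraries, so an exact permutation test of 2 against 2 libraries cannot give a p below 0.333. The Meis1/2 antibody does not separate Meis1 from Meis2, whole ventricles hold several cell types, and each antibody was run in its own set with its own inputs, so a difference between antibodies cannot be told apart from one between sets. The labels can be read as 2 hearts pooled in a library or as 1 heart in each replicate.

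The lists held 1541 and 1025 Meis1 peaks in Paro/Neo, against 3529 and 3176 in control. Hoxb13 lists held 821 and 16963 peaks in Paro/Neo libraries 1 and 2, against 5202 and 1121 in control libraries 1 and 2, so the longest and the shortest Hoxb13 list came from the same group. Sequencing depth is unknown, and a gene without a peak may be unbound or below what that library could show. The names of the deposited second Meis1 lists carry the letter of the other group; the labels were followed. With the second lists exchanged, the Meis1 lists would hold 1541 and 3176 peaks in Paro/Neo, against 3529 and 1025 in control, and each Meis1 value given below for Paro/Neo library 2 would belong to control and each for control library 2 to Paro/Neo. As a check of the tissue, 12 heart muscle genes were counted, among them Tnnt2, Myl2 and Ryr2. A Hoxb13 peak lay at 10 and 12 of them in Paro/Neo libraries 1 and 2, against 11 and 10 in control. Of 12 genes of liver, pancreas, lung, kidney, brain and skin, 0 and 2 had one in Paro/Neo, against 1 and 0 in control. Over all protein-coding genes the Hoxb13 shares were 4.2% and 46.5% in Paro/Neo, against 24.2% and 5.79% in control. Meis1 peaks lay at 3 and 3 of the 12 heart muscle genes in Paro/Neo, against 7 and 6 in control, and at none of the other 12 genes. The Meis1 shares over all protein-coding genes were also lower in Paro/Neo, 4.07% and 2.83%, against 8.59% and 8.21% in control. A peak is not a measure of expression.

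Promoter sequences of 9 genes named in the results are shown first. RefSeq promoters of assembly GRCm38.p6, from 250 bases before to 50 bases after the transcription start, were available for 80 of the 99 genes. The first 6 belong to the genes with a Meis1 peak on the promoter, and capitals mark the MEIS core TGACAG or its reverse complement CTGTCA. They lie at chr7:30183921-30184220 (Cox7a1, plus strand), chr2:174464052-174464351 (Atp5e, minus strand), chr4:123718137-123718436 (Ndufs5, minus strand), chr1:36691237-36691536 (Cox5b, plus strand), chr5:115348909-115349208 (Cox6a1, minus strand) and chr4:140961021-140961320 (Sdhb, plus strand). Each is printed 5′ to 3′ on its gene's strand.
Cox7a1: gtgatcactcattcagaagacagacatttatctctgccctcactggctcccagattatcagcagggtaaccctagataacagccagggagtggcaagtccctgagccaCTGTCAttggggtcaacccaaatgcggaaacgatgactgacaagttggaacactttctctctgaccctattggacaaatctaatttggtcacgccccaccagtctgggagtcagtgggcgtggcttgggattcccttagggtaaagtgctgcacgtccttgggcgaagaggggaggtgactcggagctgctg
Atp5e: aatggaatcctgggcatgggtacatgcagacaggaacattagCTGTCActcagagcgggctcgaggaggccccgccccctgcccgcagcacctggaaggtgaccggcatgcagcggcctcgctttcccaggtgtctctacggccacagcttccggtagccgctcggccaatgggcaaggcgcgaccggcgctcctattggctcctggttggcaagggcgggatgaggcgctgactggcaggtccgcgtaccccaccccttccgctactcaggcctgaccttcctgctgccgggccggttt
Ndufs5: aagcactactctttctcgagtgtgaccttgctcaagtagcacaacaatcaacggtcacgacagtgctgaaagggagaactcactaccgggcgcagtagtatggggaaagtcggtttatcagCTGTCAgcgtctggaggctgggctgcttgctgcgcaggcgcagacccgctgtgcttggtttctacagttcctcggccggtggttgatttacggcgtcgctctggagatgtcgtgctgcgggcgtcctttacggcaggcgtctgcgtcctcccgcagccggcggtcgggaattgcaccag
Cox5b: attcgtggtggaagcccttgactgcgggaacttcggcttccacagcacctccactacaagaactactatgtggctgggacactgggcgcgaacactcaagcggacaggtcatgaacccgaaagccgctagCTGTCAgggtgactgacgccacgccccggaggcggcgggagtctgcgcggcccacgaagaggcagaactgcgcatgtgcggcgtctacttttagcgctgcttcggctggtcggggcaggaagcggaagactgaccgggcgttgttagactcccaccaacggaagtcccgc
Cox6a1: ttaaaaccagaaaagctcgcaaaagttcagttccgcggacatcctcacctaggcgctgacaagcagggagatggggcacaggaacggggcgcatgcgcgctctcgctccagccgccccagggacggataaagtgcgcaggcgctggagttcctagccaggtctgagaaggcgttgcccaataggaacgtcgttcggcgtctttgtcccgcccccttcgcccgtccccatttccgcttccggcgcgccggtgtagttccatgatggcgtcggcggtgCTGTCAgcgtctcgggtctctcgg
Sdhb: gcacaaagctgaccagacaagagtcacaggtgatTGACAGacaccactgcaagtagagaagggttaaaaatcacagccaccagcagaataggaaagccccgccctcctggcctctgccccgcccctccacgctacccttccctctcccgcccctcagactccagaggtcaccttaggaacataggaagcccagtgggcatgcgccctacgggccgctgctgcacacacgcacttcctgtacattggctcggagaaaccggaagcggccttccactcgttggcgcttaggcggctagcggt

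The other 3 promoters belong to genes with a Hoxb13 peak in all 4 libraries that touched the promoter in at least 3 of them. Capitals mark CG dinucleotides, 12 in Ndufs8 (chr19:3912725-3913024, minus strand), 18 in Cs (chr10:128337477-128337776, plus strand) and 18 in Atp5b (chr10:128083057-128083356, plus strand). Their CpG observed-to-expected ratios, 0.532, 0.697 and 0.833, lie on both sides of the median of all genes, 0.576, and are shown because promoter CpG content is used as a background below.
Ndufs8: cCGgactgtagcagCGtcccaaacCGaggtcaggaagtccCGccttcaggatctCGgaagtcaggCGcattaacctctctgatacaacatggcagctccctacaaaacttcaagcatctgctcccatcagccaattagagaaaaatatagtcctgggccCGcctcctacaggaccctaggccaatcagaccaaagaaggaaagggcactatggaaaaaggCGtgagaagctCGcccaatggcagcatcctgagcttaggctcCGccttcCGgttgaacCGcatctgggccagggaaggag
Cs: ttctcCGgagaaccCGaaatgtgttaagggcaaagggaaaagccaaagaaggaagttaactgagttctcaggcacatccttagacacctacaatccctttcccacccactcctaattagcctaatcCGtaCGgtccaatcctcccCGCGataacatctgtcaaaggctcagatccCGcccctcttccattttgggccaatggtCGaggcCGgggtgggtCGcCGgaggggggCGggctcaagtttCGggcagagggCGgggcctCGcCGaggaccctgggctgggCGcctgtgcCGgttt
Atp5b: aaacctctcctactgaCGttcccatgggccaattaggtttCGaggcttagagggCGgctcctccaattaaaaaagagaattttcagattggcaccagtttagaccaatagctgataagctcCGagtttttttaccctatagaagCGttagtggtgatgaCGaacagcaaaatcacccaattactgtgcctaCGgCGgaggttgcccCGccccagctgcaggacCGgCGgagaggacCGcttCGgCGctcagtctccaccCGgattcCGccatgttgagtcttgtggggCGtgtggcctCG

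Meis1 peaks were few at these genes. Of the 99 genes, 3 and 2 had a Meis1 peak within the gene or 5 kb either side in Paro/Neo libraries 1 and 2, against 7 and 5 in control libraries 1 and 2; with the exchange the numbers would be 3 and 5 in Paro/Neo, against 7 and 2 in control. Over all protein-coding genes the shares with a Meis1 peak were 4.07% and 2.83% in Paro/Neo, against 8.59% and 8.21% in control. Respiratory chain genes are short, with a median length of 7177 bp against 17169 bp for all genes, and a short gene offers less room for a peak. At the share seen in genes of like length (10 length classes), 1.86 and 1.36 of the 99 would have had a peak in Paro/Neo, and 4.52 and 4.18 in control. The observed numbers were 1.20 to 1.61 times these over the 4 libraries, which rests on counts of 2 to 7 genes.

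A Meis1 region found in 2 or more libraries was present at 4 genes, Cox7a1, Atp5e, Ndufs5 and Ndufa6, or 4.04% of the 99 against 6.19% of all genes. Over the whole family 10 of the 99 genes had a Meis1 peak in any library, against 11.8% of all genes. The other 6 were Cox5b, Cox6a1, Cox6a2, Sdhb, Ndufa10 and Ndufa11, and all 6 had it in 1 library labelled control. For Cox6a1 and Sdhb this was control library 2, which the exchange would place in Paro/Neo. None of these 10 is a complex III gene, a complex I assembly factor, Cycs or Cs. For complex III the like-length numbers were 0.15 and 0.11 in Paro/Neo and 0.376 and 0.335 in control, so its lack of Meis1 peaks was near the background.

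Cox7a1 was the only gene of the 99 with a Meis1 peak in all 4 libraries, a class that held 1.87% of all genes. Its product is the isoform of complex IV subunit 7a that prevails in heart and skeletal muscle. The 4 peaks covered nearly the same bases, chr7:30183966-30184173 and chr7:30183935-30184184 in Paro/Neo and chr7:30183921-30184184 and chr7:30183930-30184165 in control. Their folds over local background, the authors' values, were 4.52 and 4.95 in Paro/Neo, against 4.37 and 5.36 in control. Within their own lists these ranked at percentiles 36.0 and 44.3 in Paro/Neo, against 38.5 and 65.8 in control, so the peaks were of ordinary height in all 4. The reverse MEIS core of Cox7a1, at positions -142 to -137 counted from the start, lay inside all 4 peaks.

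Atp5e, which encodes the epsilon subunit of ATP synthase, had a Meis1 peak at its start in Paro/Neo library 1 and in both control libraries, or with the exchange in both Paro/Neo libraries and control library 1. The folds were 4.59 in Paro/Neo, against 4.62 and 3.57 in control, at percentiles 38.5 in Paro/Neo and 47.0 and 8.09 in control. Its MEIS core, at positions -208 to -203, lay inside all 3 peaks. Ndufs5, an accessory subunit of complex I, had a Meis1 peak of fold 5.07 in Paro/Neo library 1 and of 4.35 in control library 2, and only the Paro/Neo peak held its MEIS core. Ndufa6, another accessory subunit of complex I, had its Meis1 peaks, of fold 4.69 in Paro/Neo library 2 and 3.61 in control library 1, more than 3 kb past its own end, at the neighbouring gene Smdt1.

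**Figure D1:**
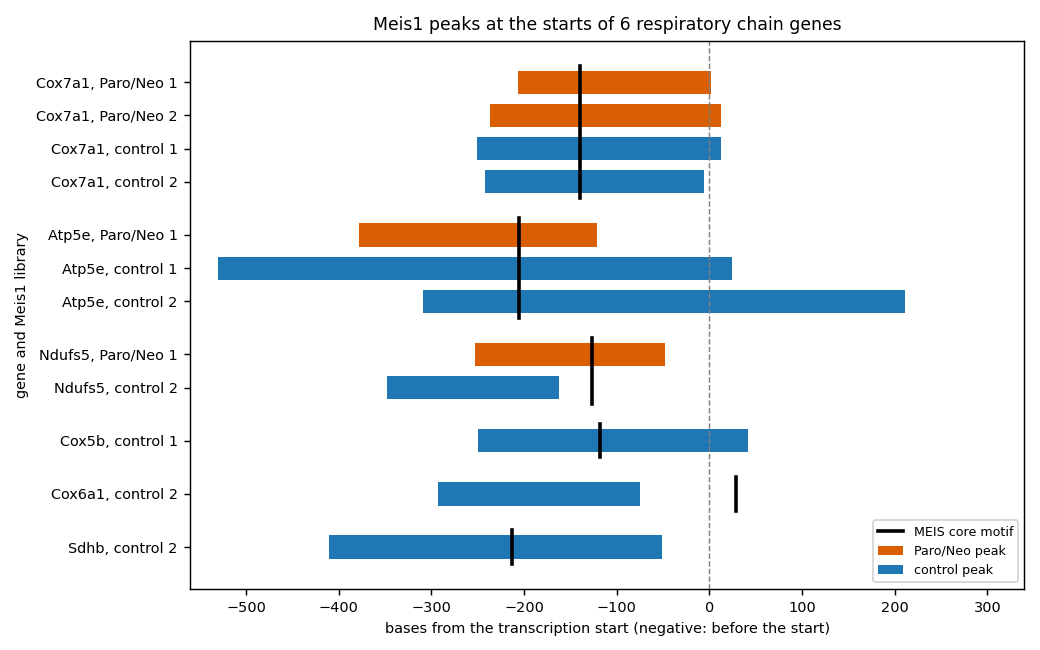
Meis1 peaks on the promoters of 6 respiratory chain genes; the x axis gives bases from the transcription start, each bar is the extent of 1 peak in 1 library (orange Paro/Neo, blue control), and black lines mark the MEIS core. All 4 Cox7a1 peaks lie on the bases just before the start and cross the motif, and the Cox6a1 peak does not reach it.

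Promoters that carried a Meis1 peak in a single library held a MEIS core as well. Ndufa11, whose peak in control library 1 lay within 1 kb of its start but off the promoter, had none there. Cox5b had a Meis1 peak of fold 5.16 in control library 1, Cox6a1 of 5.10 in control library 2 and Sdhb of 3.74 in control library 2. Cox5b encodes a subunit of complex IV, Cox6a1 the widely expressed isoform of its subunit 6a, and Sdhb the iron-sulfur subunit of complex II. The motif lay inside the peak at Cox5b and Sdhb and outside it at Cox6a1, where it follows the start by 26 to 31 bases. In all, 6 of 6 respiratory chain genes with a Meis1 peak on the promoter held TGACAG on either strand, against 14 of the other 74 with a promoter sequence. Over all 17492 genes with a promoter sequence the motif was present in 21.2%, and among the 365 genes with a Meis1 peak there in 51.8%. A match describes the sequence and does not show which protein sat on it.

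No group difference in Meis1 calls could be placed at a respiratory chain gene. None of the 99 had a Meis1 peak in Paro/Neo libraries 1 and 2 without one in control (0.0183% of all genes), and none was called in control libraries 1 and 2 without a Paro/Neo call (2.08% of all genes, or 1.12 genes at the like-length share). With the second Meis1 lists exchanged, as the deposited names have it, Ndufs5 would be found in both Paro/Neo libraries alone and Ndufa6 in both control libraries alone. Counting the gene body without flanks, Atp5e became the 1 gene with Meis1 peaks in both control libraries alone, because its Paro/Neo peak lies 122 bp outside the gene.

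Hoxb13 peaks were found at most of the genes in the longest list and at few in the short ones. A peak lay at 9 and 84 of the 99 in Paro/Neo libraries 1 and 2, against 45 and 12 in control libraries 1 and 2. The shares over all genes were 4.2% and 46.5% in Paro/Neo, against 24.2% and 5.79% in control. Genes of like length would have given 4.17 and 42 in Paro/Neo, against 22.8 and 5.93 in control, so the observed numbers were 1.98 to 2.16 times the like-length numbers in all 4 lists, long or short. A second property also differed from the rest of the genome: the promoters of the 80 genes with a sequence had a median CpG observed-to-expected ratio of 0.831, against 0.576 over all genes. Set against genes alike in both CpG content and length, the 80 genes had 1.29 and 1.37 times the number in Paro/Neo libraries 1 and 2, and 1.27 and 1.16 times in control libraries 1 and 2; this background was chosen after the data were seen.

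**Figure D2:**
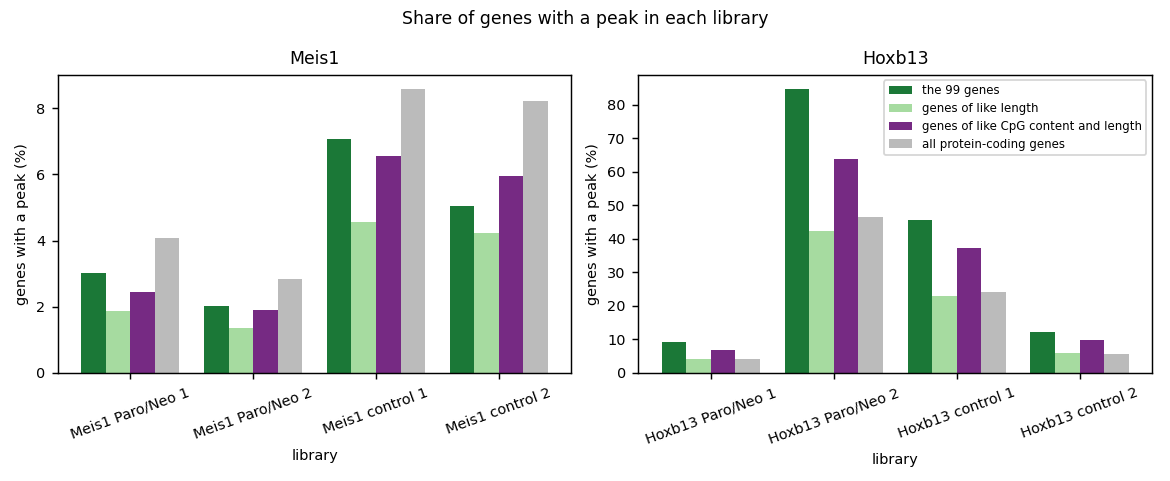
Percent of genes with a peak in each Meis1 (left) and Hoxb13 (right) library, for the 99 respiratory chain genes, genes of like length, genes of like CpG content and length (for the 80 with a promoter sequence) and all protein-coding genes. For Hoxb13 the 99 genes reach 84.8% in Paro/Neo library 2, against 42.4% at like length and 63.9% at like CpG content and length.

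The lists were nested at these genes. All 9 genes of Paro/Neo library 1 and all 45 and 12 of control libraries 1 and 2 were also in Paro/Neo library 2, and all 12 of control library 2 were in control library 1. By number of libraries, 8 genes had a Hoxb13 peak in all 4, 4 genes in 3, 34 in 2 (33 of them in Paro/Neo library 2 and control library 1), 38 in Paro/Neo library 2 alone and 15 in none. A Hoxb13 region found in 2 or more libraries was present at 47 genes, or 47.5% against 22.9% of all genes, and 21.9 genes at the like-length share. One of the 47, Ndufa7, had its own peaks in Paro/Neo library 2 alone, and the peaks of the other libraries in the same region began beyond its 5 kb. The count of 47 rested on the longest 2 lists. It fell to 13 without Paro/Neo library 2 (6.56% of all genes) and to 15 without control library 1 (7.19% of all genes), and the ratio to like-length genes was then 1.95 and 2.07.

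**Figure D3:**
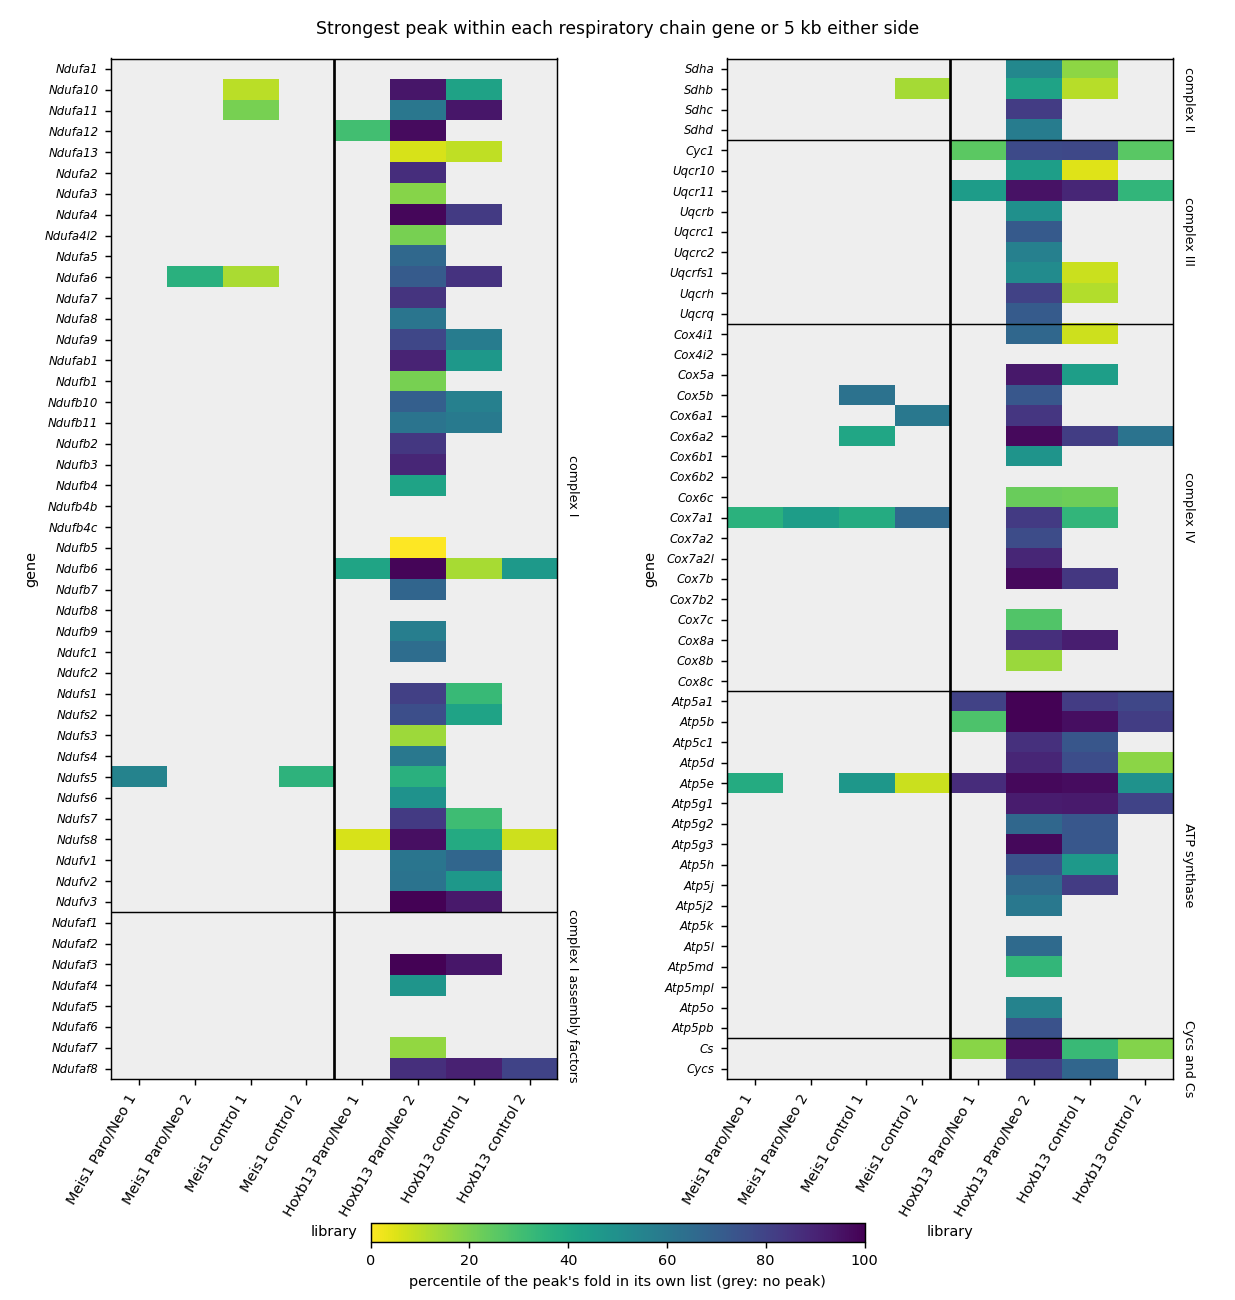
Each row is 1 of the 99 genes, ordered by complex, and each column 1 library, Paro/Neo left of control for each antibody; colour gives the percentile of the gene's strongest peak within that library's own list, and grey means no peak. Cox7a1 alone is filled across the 4 Meis1 columns, and 8 genes are filled across the 4 Hoxb13 columns.

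Of the 8 genes with a Hoxb13 peak in all 4 libraries, a class that held 2.83% of all genes, 3 encode subunits of ATP synthase, namely Atp5a1, Atp5b and Atp5e. A Hoxb13 peak lay at 3 and 15 of the 17 genes in Paro/Neo libraries 1 and 2, against 10 and 5 in control libraries 1 and 2, where the like-length numbers were 0.726 and 7.16 in Paro/Neo and 3.9 and 1.05 in control. The difference between complexes was not tested.

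Atp5b encodes the catalytic beta subunit. Its start carried a Hoxb13 peak in Paro/Neo library 2 (fold 4.43) and in both control libraries (3.55 and 4.04), and a further peak lay around its end in all 4 libraries, of fold 3.29 and 5.90 in Paro/Neo and 4.78 and 3.90 in control. In Paro/Neo library 2 this end peak was 3630 bp wide, against 604 bp in Paro/Neo library 1 and 1030 and 467 bp in control. Atp5a1, the alpha subunit, had its repeated peak across or just past the upper end of the gene on chromosome 18, of fold 4.08 and 6.28 in Paro/Neo, against 3.78 and 3.94 in control. It was 1130 and 4345 bp wide in Paro/Neo, against 2014 and 1395 bp in control. The strand of Atp5a1 is not in the promoter table used, so that end was not assigned.

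Atp5e had its Hoxb13 peak at the start in all 4 libraries, overlapping the Meis1 peaks. The folds were 4.39 and 4.81 in Paro/Neo, against 4.91 and 3.44 in control, at percentiles 87.2 and 97.9 in Paro/Neo and 96.5 and 48.9 in control. It is the 1 gene of the 99 with a Hoxb13 peak in all 4 libraries and a Meis1 peak in 3. The MEIS core of Atp5e lay inside all 4 of these Hoxb13 peaks too.

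Atp5g1, one of the genes for the proton-carrying c subunit, had a start peak in 3 libraries, of fold 3.99 in Paro/Neo library 2, against 4.29 and 3.97 in control. Atp5d, the delta subunit, also had peaks in 3 libraries. Its peak past the gene end, at Midn, was the widest of any at the 99 genes, 8341 bp in Paro/Neo library 2, against 1621 and 348 bp for the widest at the same place in control. Atp5k and Atp5mpl, both small subunits, had no Hoxb13 peak in any library.

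Complex I had Hoxb13 peaks at 3 and 36 of 41 genes in Paro/Neo libraries 1 and 2, against 17 and 2 in control libraries 1 and 2. The like-length numbers were 1.76 and 18 in Paro/Neo and 9.72 and 2.52 in control, so the count of control library 2 was near its background. Ndufs8, an iron-sulfur core subunit, had a peak at its start in all 4 libraries, of fold 2.93 and 4.34 in Paro/Neo, against 3.17 and 2.86 in control. The low values stood at percentiles 6.09 in Paro/Neo library 1 and 7.49 in control library 2, so in both of the short lists it was among the weakest peaks. Ndufb6, an accessory subunit, also had a peak in all 4 libraries, of fold 3.42 and 5.15 in Paro/Neo, against 2.93 and 3.42 in control, but it lay past the gene end within 1 kb of the start of a neighbour, with Topors and Smim27 in reach.

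Ndufs1, the large iron-sulfur core subunit, and Ndufv1, the core subunit that binds NADH, each had peaks in Paro/Neo library 2 and control library 1. At Ndufv1 the start peak had fold 3.18 in Paro/Neo, against 3.47 in control. At Ndufs1 the peak shared by both libraries, of fold 3.09 in Paro/Neo against 3.12 in control, had Eef1b2 as its nearest gene. Ndufa1, Ndufb4b, Ndufb4c, Ndufb8 and Ndufc2 had none. Ndufb4b and Ndufb4c are copies of Ndufb4 by name, and how reads were divided among them was not tested, so their absence is uncertain.

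Ndufa12, an accessory subunit of complex I, was the only one of the 99 with a Hoxb13 peak in both Paro/Neo libraries and neither control library, a class that held 0.132% of all genes. The peaks at its start had folds 3.31 and 4.62 at percentiles 30.3 and 97.2, and the control libraries had none, with an exact two-sided permutation p of 0.333, the smallest these 4 libraries allow. The call was lost when peaks needed a −log10 q of at least 2 or when the gene body was counted alone, since the peak of Paro/Neo library 1 had a −log10 q of 1.39 and lay 33 bp outside the gene. The opposite class, both control libraries and neither Paro/Neo library, held none of the 99 and 0.00457% of all genes. Without Paro/Neo library 1 the Paro/Neo class held 39 genes, and without Paro/Neo library 2 the control class held 4, so both counts turned on which list stood for the group.

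Assembly factors of complex I had peaks at 0 and 4 of 8 genes in Paro/Neo, against 2 and 1 in control. These were close to the like-length numbers, 0.324 and 3.52 in Paro/Neo and 1.86 and 0.457 in control. Ndufaf3 had the highest mean percentile of the 99, 96.7 over its 2 libraries, from a peak of fold 5.92 in Paro/Neo library 2 and 4.44 in control library 1 that lay past its end, near the start of another gene. Ndufv3, an accessory subunit of complex I, followed with 96.3 and Cox7b, of complex IV, with 90.8, both also from 2 libraries and from peaks past the gene end or before the start. Ndufaf8 had a peak at its start in 3 libraries, of fold 3.73 in Paro/Neo library 2, against 4.15 and 3.98 in control, within 1 kb of the start of a neighbour, with Tepsin and Slc38a10 in reach. Ndufaf1, Ndufaf2, Ndufaf5 and Ndufaf6 had no Hoxb13 peak.

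All 4 genes of complex II had a Hoxb13 peak in Paro/Neo library 2, none in Paro/Neo library 1, and 2 and 0 in control. The like-length numbers were 0.189 and 2.03 in Paro/Neo libraries 1 and 2 and 1.05 and 0.26 in control. Sdha, the flavoprotein that oxidises succinate, had a peak at its start in Paro/Neo library 2 alone (fold 3.13), and the peak found in both Paro/Neo library 2 and control library 1, of fold 2.47 against 2.97, lay past its end nearer to another gene's start.

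Complex III had peaks at 2 and 9 of 9 genes in Paro/Neo, against 5 and 2 in control, where the like-length numbers were 0.415 and 3.8 in Paro/Neo and 2.12 and 0.578 in control. Cyc1, which encodes cytochrome c1, and Uqcr11, a small subunit, were called in all 4 libraries, but at neither gene did the peak found in all 4 lie at the gene itself. The Uqcr11 peak, of fold 3.46 and 4.28 in Paro/Neo, against 4.05 and 3.28 in control, lay more than 3 kb past its end at the start of Mbd3. The Cyc1 peak, of fold 3.25 and 3.48 in Paro/Neo, against 3.19 and 3.17 in control, lay more than 4 kb outside the gene on the side of Sharpin and Maf1. Within Cyc1 itself a peak was found in Paro/Neo library 2 (percentile 39.1) and control library 1 (78.5). Uqcrc1, a core protein of the complex, had 1 peak, 2658 bp wide, across and past its end in Paro/Neo library 2 (fold 3.37).

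Complex IV had no peak in Paro/Neo library 1 and peaks at 14 of 18 genes in Paro/Neo library 2, against 7 and 1 in control. The like-length numbers were 0.662 and 6.58 in Paro/Neo and 3.61 and 0.94 in control, so the counts in the short lists were near the background. The isoforms that prevail in heart and muscle, Cox6a2, Cox7a1 and Cox8b, all had a peak in Paro/Neo library 2, and 2 and 1 of them in control. Their widely expressed partners, Cox6a1, Cox7a2 and Cox8a, likewise all had a peak in Paro/Neo library 2, and 1 and 0 of them in control. Of 5 isoforms known from other tissues, Cox4i2, Cox6b2, Cox7b2, Cox8c and Ndufa4l2, 1 had a peak (Ndufa4l2, in Paro/Neo library 2, fold 2.85). Groups of 3 and 5 genes allow no ranking.

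Cox6a2 had Hoxb13 peaks in 3 libraries, of fold up to 4.65 in Paro/Neo library 2, against 3.76 and 3.60 in control. These lay about 2 kb outside the gene, nearer to another gene, while the 1 Meis1 peak at Cox6a2 (fold 4.44, control library 1) overlapped a weaker Hoxb13 peak within the gene. Cox7a1 had a Hoxb13 peak at its start in Paro/Neo library 2 (fold 3.61) and control library 1 (3.13). The single Cox8b peak had Psmd13 as its nearest gene.

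Among the widely expressed partners, Cox8a had a start peak of fold 3.72 in Paro/Neo library 2, against 4.19 in control library 1. Cox4i1 and Cox5a, both early-assembling subunits, had peaks in the same pair of libraries. At Cox5a the start peak had fold 3.45 in Paro/Neo, against 2.73 in control. At Cox4i1 the peak found in both had fold 2.56 in Paro/Neo, against 2.85 in control, and shares its place with Emc8.

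Cs had a Hoxb13 peak at its start in all 4 libraries, of fold 3.16 and 4.32 in Paro/Neo, against 3.12 and 3.08 in control. In Paro/Neo library 2 it also had a peak 3878 bp wide across its end. Cycs had a peak around its end in Paro/Neo library 2 and control library 1, 2838 bp wide with fold 3.57 in Paro/Neo, against 724 bp and 3.47 in control, and a start peak in Paro/Neo library 2 alone (2.60).

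Where a peak lay along the gene could be read for the 80 genes with a strand. In the long lists the share at gene ends was above that of genes of like length. In Paro/Neo library 2, 71 of 156 Hoxb13 peaks at these genes (45.5%) had their midpoint within 1 kb of the gene end or beyond it, against 33.5% at genes of like length and 24.6% at all genes. In control library 1 it was 22 of 48 (45.8%), against 30.9% at like length and 23.1% at all genes. Starts held 40.4% in Paro/Neo library 2, against 46% at like length, and 52.1% in control library 1, against 54.7%. The short lists hold few such peaks, 7 and 10 in all. There the share at starts and the share at ends and beyond were both above like length. Starts held 4 of 7 (57.1%) in Paro/Neo library 1, against 49.4% at like length, and 6 of 10 (60%) in control library 2, against 50.3%. Ends and beyond held 42.9% in Paro/Neo library 1, against 37.6% at like length, and 40% in control library 2, against 37.2%. The peaks of a gene are not independent, and the difference was not tested.

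The end and downstream peaks were wide, with a median width of 878 bp in Paro/Neo library 2 against 499 bp for the peaks at starts of the same genes, and 716.5 bp against 471 bp in control library 1. At all genes these medians were 652 bp against 542 bp in Paro/Neo library 2, and 483 bp against 404 bp in control library 1. Some of these peaks lay nearer to a neighbouring gene. Of the 71 end and downstream peaks in Paro/Neo library 2, 16 lay within 1 kb of another gene's start and 39 had the respiratory chain gene as their nearest gene; of the 22 in control library 1, the numbers were 10 and 7. Counting only the nearest gene of each region, 32 in place of 47 genes had a Hoxb13 region in 2 or more libraries, and 5 in place of 8 had a peak in all 4.

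**Figure D4:**
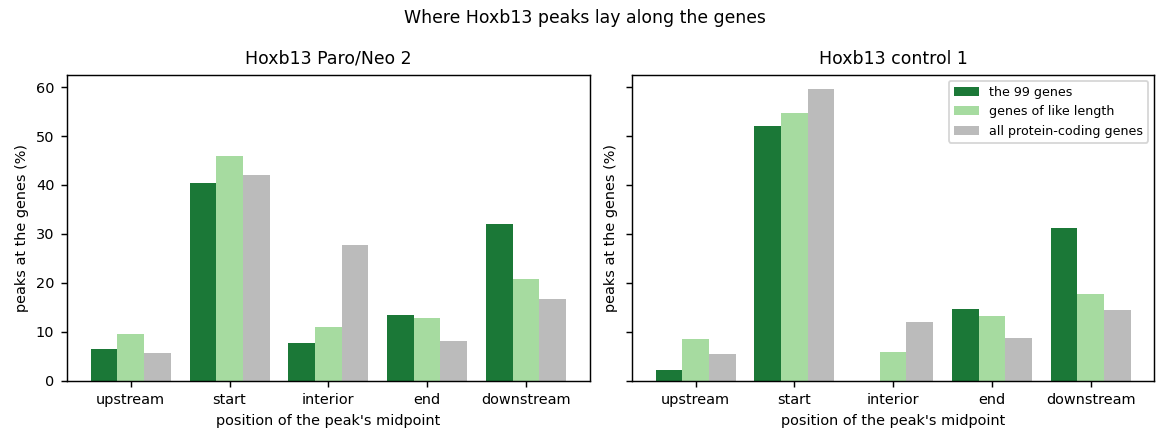
Percent of Hoxb13 peaks by the position of their midpoint (start and end: within 1 kb; upstream and downstream: further out, to the edge of the 5 kb window), in Paro/Neo library 2 (left) and control library 1 (right), for the respiratory chain genes with a strand, genes of like length and all protein-coding genes. The downstream class holds 32.1% and 31.2% of peaks at respiratory chain genes, against 20.8% and 17.7% at genes of like length.

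All 10 genes with a Meis1 peak also had a Hoxb13 peak, and at 8 of the 10 (not at Ndufs5 and Cox6a1) peaks of the antibodies shared bases. A Hoxb13 peak in any library was present at 84 of the 99 genes and at 47.6% of all genes, and the 10 of 10 are read against that share. For shared bases no share over all genes was computed. At Cox5b, Cox6a2, Ndufa10, Sdhb and Ndufa11 the Meis1 region came from 1 library, and at Cox5b and Cox6a2 the Hoxb13 region did too.

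Other genes of mitochondrial energy supply give the setting for the Hoxb13 counts. All 8 genes of nucleotide and phosphate transport, among them the ADP/ATP carriers Slc25a4 and Slc25a5, had a Hoxb13 peak in Paro/Neo library 2 and in control library 1, with 3 in Paro/Neo library 1 and 2 in control library 2. Regulators of mitochondrial biogenesis had one at 6 and 16 of 19 in Paro/Neo, against 11 and 5 in control. Esrra and Ppara, nuclear receptors that drive oxidative genes, and also Polg and Polg2 were in both of the short lists. Citric acid cycle and pyruvate dehydrogenase genes had one at 0 and 15 of 17 in Paro/Neo, against 7 and 2 in control. Assembly factors whose symbols the rule does not take had one at 2 and 28 of 37 in Paro/Neo, against 13 and 0 in control. Like-length numbers are given for Paro/Neo libraries 1 and 2, then control libraries 1 and 2. They were 0.365, 3.78, 2.02 and 0.503 for the transport genes and 0.869, 10, 5.12 and 1.2 for the regulators. For the citric acid cycle list they were 0.777, 8.8, 4.53 and 1.07, and for these assembly factors 1.57, 16.7, 8.87 and 2.18.

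Ribosomal protein genes form other large families. Cytosolic ribosomal protein genes had a Hoxb13 peak at 74 of 80 in Paro/Neo library 2 (92.5%) and 44 in control library 1 (55%), shares above those of the 99 genes, but at 4 in Paro/Neo library 1 (5%) and 2 in control library 2 (2.5%), below the 9.09% and 12.1% of the 99. Mitochondrial ribosomal protein genes had one at 2 and 59 of 78 in Paro/Neo, against 26 and 4 in control, shares below those of the 99 in every list. For cytosolic ribosomal protein genes the like-length numbers were 3.45 and 28.6 in Paro/Neo and 16.5 and 4.74 in control. For the mitochondrial ones they were 3.38 and 34 in Paro/Neo and 18.4 and 4.8 in control. None of these list differences was tested. Meis1 peaks were found at 1 and 1 of the 19 regulators in Paro/Neo, against 3 and 4 in control. The like-length numbers for the regulators were 1.12 and 0.773 in Paro/Neo and 2.29 and 2.21 in control. A Meis1 region found in 2 or more libraries was present at Ppargc1a and Ppara, against 1.68 regulators at the like-length share. None of the 8 transport genes had a Meis1 peak.

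**Figure D5:**
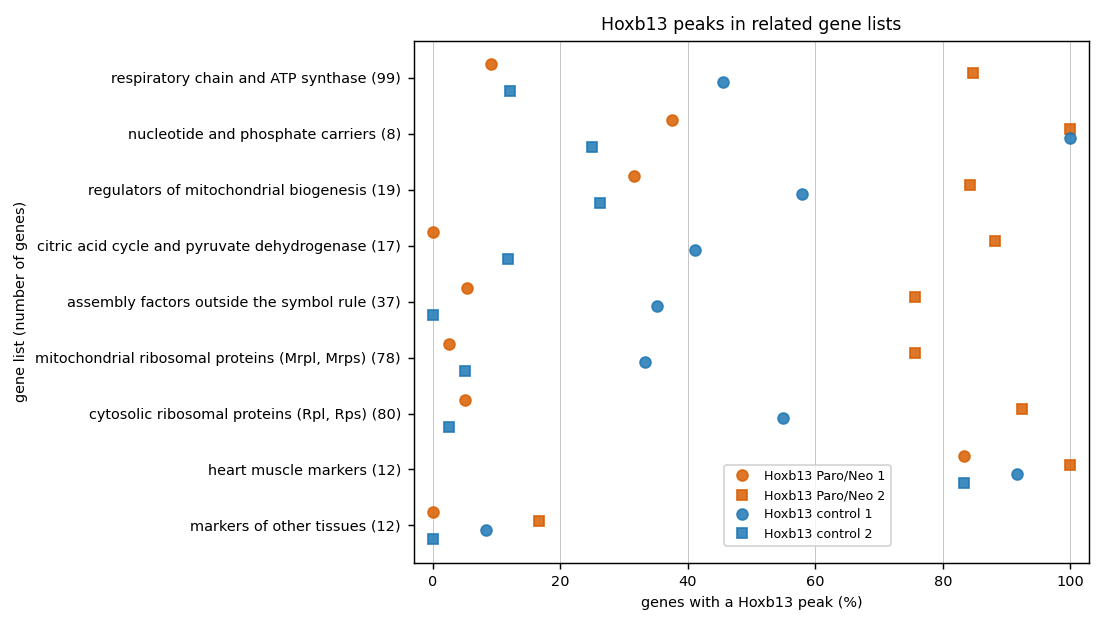
Percent of genes with a Hoxb13 peak in each of the 4 libraries (orange Paro/Neo, blue control; circles library 1, squares library 2) for the 99 genes and 8 other lists, with the number of genes in parentheses. The 99 genes lie at 9.09% and 84.8% in Paro/Neo and 45.5% and 12.1% in control, and heart muscle markers are above 80% in all 4 libraries.

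List length was also set equal by keeping the strongest peaks of each list. With 821 Hoxb13 peaks kept in each, 9 and 15 of the 99 genes had a peak in Paro/Neo, against 11 and 9 in control, where all genes stood at 4.2% and 5.08% in Paro/Neo and 4.91% and 4.55% in control. With 1025 Meis1 peaks kept, the numbers were 2 and 2 in Paro/Neo, against 0 and 1 in control, where 2.89% and 2.83% of all genes in Paro/Neo and 2.76% and 2.81% in control had a peak. The like-length numbers were 1.23 and 1.36 in Paro/Neo and 1.31 and 1.26 in control, so these counts were near the background. Cox7a1 was kept in both Paro/Neo libraries and in control library 2. The groups overlapped for Hoxb13 at equal length.

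Promoters were also searched, on both strands, for motifs of factors known to drive respiratory genes. The NRF1 core GCATGCGC was present at 13 of the 80 genes with a promoter sequence (16.2%), against 3.94% of all 17492 genes, and the YY1 motif AAGATGGC in 11 (13.8%), against 3.57%. The GABPA motif CCGGAAGT was present in 5 (6.25%), against 5.69%, and the ERR motif TCAAGGTCA in 2 (2.5%), against 0.377%. For Hoxb13, the motif CCAATAAA was present in 2 (2.5%), against 1.1%, and CTCGTAAA in none, against 0.137%. Of the 59 genes with a Hoxb13 peak on the promoter in any library, 1 held CCAATAAA, or 1.69%, against 1.1% of the 5995 such genes in all. The NRF1 core was in 6 of these 59 (10.2%), against 6.36% of the 5995, and the YY1 motif in 10 (16.9%), against 6.24%. No motif share was set against promoters of like CpG content, which is high at these genes.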

How the data were processed

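ChIP-seq peak lists of 8 libraries were analysed. The build is mm10 and the tools named are MACS2, Bowtie2, HOMER, Picard 1.127 and FastQC 0.11.5, per the submitters' processing notes; the caller's options and control, not given in the sources used here, can bear on peak numbers. The authors deposited 1 broadPeak list per library. Its fold is the deposited ratio over local background. The deposited −log10 p and −log10 q belong to each peak, and the smallest −log10 q is 1.00. The deposited score was not used. Depth is unknown; intervals were therefore not given, and folds ranked peaks only within a list.

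Groups follow the labels. Genes came from RefSeq (GRCm38.p6). A gene had a peak if at least 1 bp of it lay within the gene or 5 kb either side; regions are peaks of an antibody merged across libraries. The like-length number sums, over the 99 genes, the share of all protein-coding genes of the same of 10 length classes with a peak; with CpG content, 5 classes of each were used. It describes and does not test. Group calls used exact permutation over the 6 orders of 4 libraries. Strand came from the RefSeq promoters. Named genes were the tissue isoforms, a fixed set of core subunits, genes called in several libraries or 1 group, and those with the highest percentile or widest peak; others named (Atp5g1, Ndufaf8, Ndufa7, single Meis1 peaks and genes without a peak) were chosen after their values were seen. The members, lists and tests were chosen with earlier results of these data known. Scripts were tested on simulated data. Python 3.11.15, pandas 2.3.3, numpy 2.4.6, scipy 1.17.1 and matplotlib 3.10.9 were used.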

Additional observations from a re-analysis of the deposited data

How the results depend on the processing

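Of the counts and ratios recomputed, 54 kept within 1.5 times the reported value and 22 did not. Genes with a Hoxb13 region in 2 or more libraries numbered 47, and 31 at a −log10 q of at least 2, 13 at equal list lengths and 13 to 47 when a library was left out. Genes with a Hoxb13 peak in all 4 libraries numbered 8, and 3 with the gene body alone, 4 at a −log10 q of at least 2, 3 at equal list lengths and 5 by nearest gene; with a library left out, 8 to 12 were in all of the remaining. Hoxb13 genes of both Paro/Neo libraries alone numbered 1, and 0 with the gene body alone, 0 at the stricter q, 2 at equal list lengths and 1 to 39 with a library left out (39 without Paro/Neo library 1). Those of both control libraries alone numbered 0, and 0 to 4 with a library left out (4 without Paro/Neo library 2). Genes with a Meis1 region in 2 or more libraries numbered 4, and 2 with the gene body alone, 1 at equal list lengths and 3 with any library left out. Meis1 genes of both control libraries alone numbered 0, and 1 with the gene body alone, 1 with the second replicates exchanged and 0 to 4 with a library left out (4 without control library 2). Those of both Paro/Neo libraries alone numbered 0, 1 with the exchange and 0 with any library left out. The ratio of Hoxb13 genes with a repeated region to genes of like length was 2.15, and 1.40 against genes of like CpG content and length, a background added after seeing the data; for Meis1 the values were 1.31 and 1.14. The causes of these shifts were not tested. No paired analysis was possible because these counts come from no fitted test and no label ties the replicate numbers of the groups to a shared animal, litter or day. Unknown depth limits every absent peak.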

Other observations

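The 13 protein genes of the mitochondrial genome, which encode the remaining subunits of complexes I, III, IV and ATP synthase, lie outside the rule. Peaks on the mitochondrial chromosome were listed in 7 of the 8 libraries, all but Meis1 Paro/Neo library 1. The Hoxb13 lists had 2 and 2 such peaks in Paro/Neo, covering 11363 and 11717 bp, against 2 and 6 in control, covering 11645 and 5999 bp. The Meis1 lists had 0 and 4 in Paro/Neo, against 3 and 5 in control. Folds there were 1.47 to 1.62 in the Hoxb13 Paro/Neo lists, against 1.40 to 1.67 in the Hoxb13 control lists, while the median fold of nuclear peaks was 3.53 and 3.10 in Paro/Neo, against 3.28 and 3.46 in control. In Hoxb13 Paro/Neo library 2, 16 nuclear peaks had a fold below the highest mitochondrial one, and 3 did in Paro/Neo library 1, against 5 and 4 in control.

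Hoxb13 peaks at markers of other cell types of the ventricle were counted as well. Endothelial genes had one at 2 and 6 of 6 in Paro/Neo, against 5 and 2 in control, and fibroblast genes at 0 and 6 of 6 in Paro/Neo, against 2 and 0 in control. Macrophage and leukocyte genes had one at 0 and 1 of 6 in Paro/Neo, against 1 and 1 in control, each time Cd68. The like-length numbers in Paro/Neo libraries 1 and 2 and control libraries 1 and 2 were 0.271, 3.17, 1.62 and 0.376 for endothelial genes. For fibroblast genes they were 0.254, 3.04, 1.56 and 0.356, and for leukocyte genes 0.279, 3.03, 1.56 and 0.372. The leukocyte count of 1 gene was thus below the background in Paro/Neo library 2 and nearer to it in control library 1. In control library 2 the same gene stood above the background of 0.372. For Meis1, 2 of 6 endothelial genes, Tek and Pecam1 among those with a region in 2 or more libraries, had a peak in each of the 4 libraries, and no fibroblast or leukocyte marker did. Like-length Meis1 numbers for the endothelial genes were 0.354 and 0.241 in Paro/Neo, against 0.731 and 0.692 in control.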
